A study of Homo sapiens with 8 samples.

Results

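The genes described here encode the Golgi enzymes that build, cap and sulfate the sugar chains of mucins and other glycoproteins. They were chosen by name as all protein-coding genes of the GALNT, B3GNT, B3GALT, B4GALT, C1GALT, GCNT, FUT, ST3GAL, ST6GAL, ST6GALNAC and CHST families with a numbered symbol. The rule found 87 genes among the 60483 identifiers of the count table, of which 19645 were protein-coding, and used no measured value. The families were nevertheless chosen with earlier results of these data known. Shares of members set beside shares of all genes are therefore description and no independent support. RNA-seq was made from SW1990, a human cell line grown from pancreatic ductal cancer. The sample titles place every sample in the side population, the cells that pump out a DNA-binding dye, and name a control and a PAF1 CRISPR knockdown (PAF1_KD in the group names here). PAF1 is a subunit of a complex that travels with RNA polymerase II. Each group had 2 libraries, each sequenced on 2 lanes. The sources used here do not say which guide was used, whether a group is 1 clone, what the control cells received or whether the libraries came from separate cultures. P-values therefore rest on the spread among these 4 libraries, and that spread may be technical. The tests share part of that spread across genes, so the SE and p-value of a gene also draw on other genes.

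A mucin O-glycan starts when a GALNT enzyme puts N-acetylgalactosamine (GalNAc) on a serine or threonine. C1GALT1 then adds galactose to form core 1, the GCNT enzymes add N-acetylglucosamine (GlcNAc) branches, and the B3GNT and B4GALT enzymes alternate GlcNAc and galactose to extend the chain. Fucosyltransferases, sialyltransferases and CHST sulfotransferases finish the ends, which include the Lewis antigens and the sialyl-Tn antigen used as carcinoma markers in the pancreas.

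In each group the column name of 1 library began with SP and that of the other did not, so the libraries are called SP-prefixed and unprefixed, and values are given in the order unprefixed, then SP-prefixed. The column names do not carry the library number of the titles, and why some names hold the prefix is not given in the sources used here. The word CRISPR is missing from the column name of the unprefixed control. The labels do not settle whether unprefixed libraries hold side population cells. Libraries held 17234973 to 22348416 counts. The ductal keratins KRT7, KRT8, KRT18 and KRT19 stood at 545 to 2513 counts per 1000000 reads (CPM), and among the other ductal markers CFTR had at most 1 count in any library. The summed level in CPM was 0.847 to 1.54 in the controls and 0.105 to 0.753 in the other libraries for 7 acinar markers. For 5 islet markers it was 0.249 to 0.353 and 0.105 to 0.116, and for 6 leukocyte markers 1.15 to 2.78 and 0.316 to 1.27. Of their defining genes CPA1 and GCG were at 0, and INS and PTPRC had at most 2 counts in any library. Other markers on these lists had more counts. The acinar PRSS1 had 21 and 9 in the controls and 4 and 0 in the other libraries, and CELA3A 12 and 7 against 9 and 2. The leukocyte LYZ had 44 and 5 counts against 9 and 0, and CD14 15 and 15 against 8 and 4. The part of other cell types in the results was not tested. The 8 fibroblast and stellate markers summed to 38.3 to 48.7 CPM in control libraries versus 41.4 to 45.6 CPM in the other libraries, with DCN and COL3A1 at 0 and COL1A1 giving most of the sum, and the 5 endothelial markers to 26.2 to 29.2 and 23.8 to 29.9 CPM, mostly CDH5. PAF1 mRNA had 55.2 and 43.9 CPM in control libraries and 41.7 and 44.4 CPM in knockdown-labelled ones (log2 fold change -0.20 ± 0.16, SE over 2 libraries per group; Benjamini-Hochberg adjusted p = 0.659 in edgeR). It did not separate the groups, so every direction below rests on the labels.

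The promoters of CHST6, GCNT3, CHST4 and FUT3 are printed because these genes had the largest falls among the members with an entry in the RefSeq promoter table, which held 67 of the 87, and they let sequence near the start be set beside the values. They run from 250 bases before to 50 bases after the RefSeq start (GRCh38.p14). Capitals mark matches, on either strand, to GGGCGG (the GC box bound by Sp and KLF factors), CACCTG (an E-box bound by ZEB and SNAI factors), TGANTCA (AP-1), GGAATG (TEAD) and TATAAA (the TATA box).
CHST6, chr16:75495392-75495691, minus strand: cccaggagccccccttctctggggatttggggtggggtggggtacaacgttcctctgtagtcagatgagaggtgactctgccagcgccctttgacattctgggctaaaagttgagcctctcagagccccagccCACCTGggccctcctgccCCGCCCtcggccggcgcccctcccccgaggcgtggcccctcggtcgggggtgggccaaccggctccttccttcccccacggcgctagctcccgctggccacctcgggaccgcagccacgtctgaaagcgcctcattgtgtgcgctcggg
GCNT3, chr15:59611533-59611832, plus strand: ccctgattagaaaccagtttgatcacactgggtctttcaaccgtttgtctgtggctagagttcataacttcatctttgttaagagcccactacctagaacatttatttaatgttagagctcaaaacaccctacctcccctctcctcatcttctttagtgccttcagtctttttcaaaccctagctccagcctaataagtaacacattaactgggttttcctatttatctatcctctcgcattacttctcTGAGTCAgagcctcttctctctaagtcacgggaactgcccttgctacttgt
CHST4, chr16:71525870-71526169, plus strand: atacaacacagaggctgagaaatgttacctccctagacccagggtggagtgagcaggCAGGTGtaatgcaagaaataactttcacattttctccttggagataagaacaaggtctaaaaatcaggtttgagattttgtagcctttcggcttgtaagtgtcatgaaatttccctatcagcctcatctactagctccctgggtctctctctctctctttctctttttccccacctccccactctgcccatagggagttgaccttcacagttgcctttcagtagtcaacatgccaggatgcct
FUT3, chr19:5851400-5851699, minus strand: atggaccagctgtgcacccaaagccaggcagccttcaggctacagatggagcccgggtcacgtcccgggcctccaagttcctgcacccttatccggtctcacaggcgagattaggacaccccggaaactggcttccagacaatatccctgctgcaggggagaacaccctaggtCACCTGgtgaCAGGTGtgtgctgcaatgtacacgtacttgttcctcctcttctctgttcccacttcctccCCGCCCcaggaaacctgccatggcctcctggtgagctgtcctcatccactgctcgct
Of all 35116 promoters in the table, 45% held the GC box, 20.6% the E-box, 7.71% the AP-1 motif, 14% the TEAD motif and 11.5% the TATA box. The E-box was found 2 times in FUT3 and 1 time each in CHST6 and CHST4, the GC box 1 time each in FUT3 and CHST6, on the minus strand, and the AP-1 motif 1 time in GCNT3, beginning 1 base upstream of the start. No matches overlapped. CHST4 has 2 starts in the table and the first listed is shown. The stretches printed for GCNT3 and CHST4 lie inside the spans counted for these genes, which begin at 59594875 and 71525233. They are therefore not at the outer end of the counted genes. A match is a run of letters, not a shown binding site.

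In an edgeR fit that models the column-name prefix, 10 members fell, and they were enzymes that branch, extend, fucosylate, sialylate or sulfate chains. Of the 87 members, 67 passed the filter on low counts, 10 had 0 counts in every library and 10 more had too few. No member passed the planned edgeR test without covariates over 16417 genes, where 0% of genes passed. At an unadjusted p under 0.05, 17 of the 67 were lower (25.4%, against 7.16% of genes tested) and 3 were higher (4.48%, against 4.05%). DESeq2 passed 8 members, all lower, against 1.05% of genes lower and 0.39% higher, and limma-voom passed 0. This prefix-term fit passed 10 members, all lower. They were 14.9% of the 67, against 1.41% of all genes tested and 1.69% of the protein-coding genes, and 1.95% of genes passed in either direction. Both knockdown-labelled libraries were below both controls for 26 members (38.8%, against 22.6% of genes) and above both for 13 (19.4%, against 22.1%). A negative log2 fold change was seen in 42 of the 67 (62.7%, against 51.7% of genes), and the median over the 67 was -0.13 (-0.09 for the unprefixed pair and -0.16 for the SP-prefixed pair), beside -0.01 over all genes tested. In a bulk sample, fewer cells of a kind and less RNA per cell cannot be told apart.

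**Figure D1:**
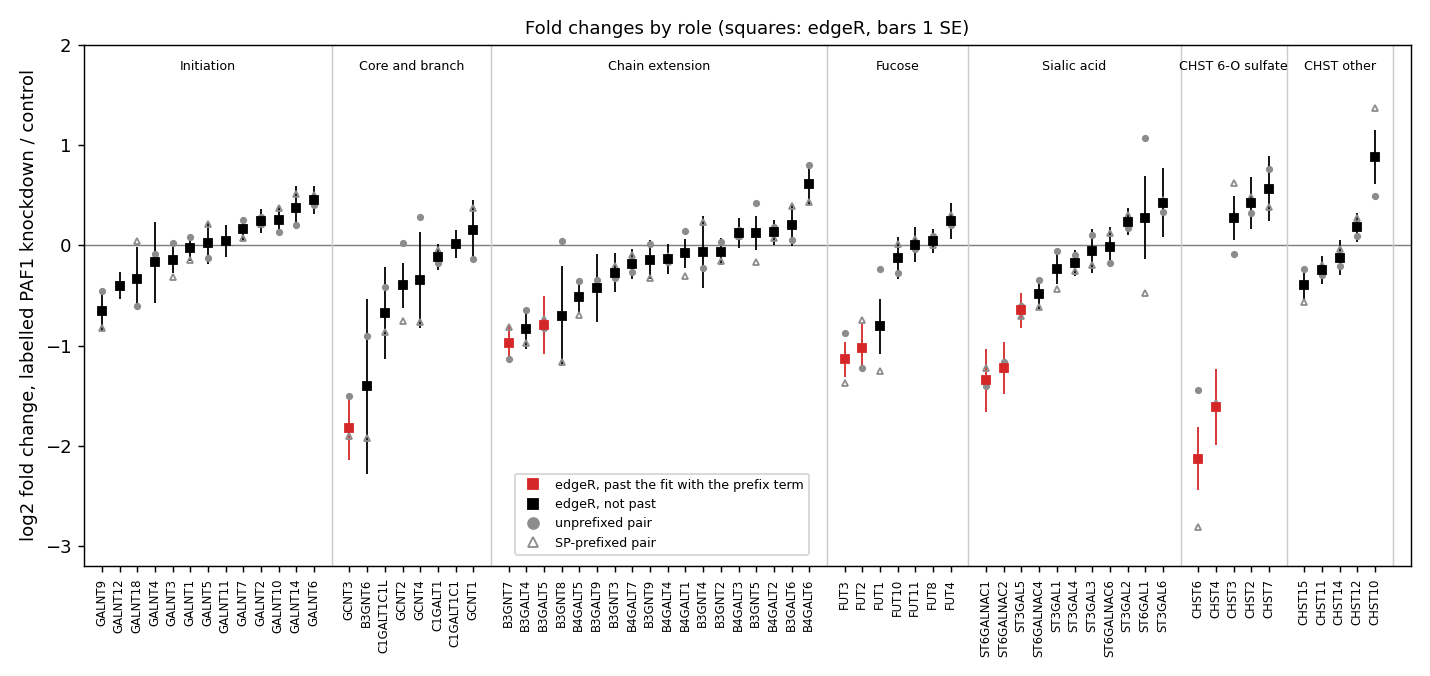
Log2 fold changes (vertical axis) of the 67 tested members by role, with squares and bars for the edgeR estimate without covariates and 1 SE (n = 2 per group) and grey circles and triangles for the unprefixed and SP-prefixed pairs. The red squares mark the 10 members past the fit with the prefix term, from -0.65 (ST3GAL5) to -2.13 (CHST6); B3GALT9 is drawn with chain extension.

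The 10 members that fell were CHST6, GCNT3, CHST4, ST6GALNAC1, ST6GALNAC2, FUT3, FUT2, B3GNT7, B3GALT5 and ST3GAL5. Their library counts ran from 16 to 2852. The words fell and rose refer here to the prefix-term fit, since the planned fit gave these 10 members adjusted p-values of 0.175 to 0.394 (edgeR, Benjamini-Hochberg). The calls were also lost in the prefix-term fit run without a count filter, with adjusted p-values of 0.117 to 0.228. For members said not to pass, the log2 fold change and its SE come from the planned fit. In both pairs of libraries all 10 were lower, and all 10 had both knockdown-labelled libraries below both controls. The fit with the prefix term favours genes on which the pairs agree, so this is no separate support. With each library left out in turn, all 10 kept a negative log2 fold change in the planned fit. Whether members passed depended on which library was left out, so no count is given. In each of these fits 1 group has a single library, which is assumed to vary like the other group, so the spread comes from the 2 libraries of that group.

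**Figure D2:**
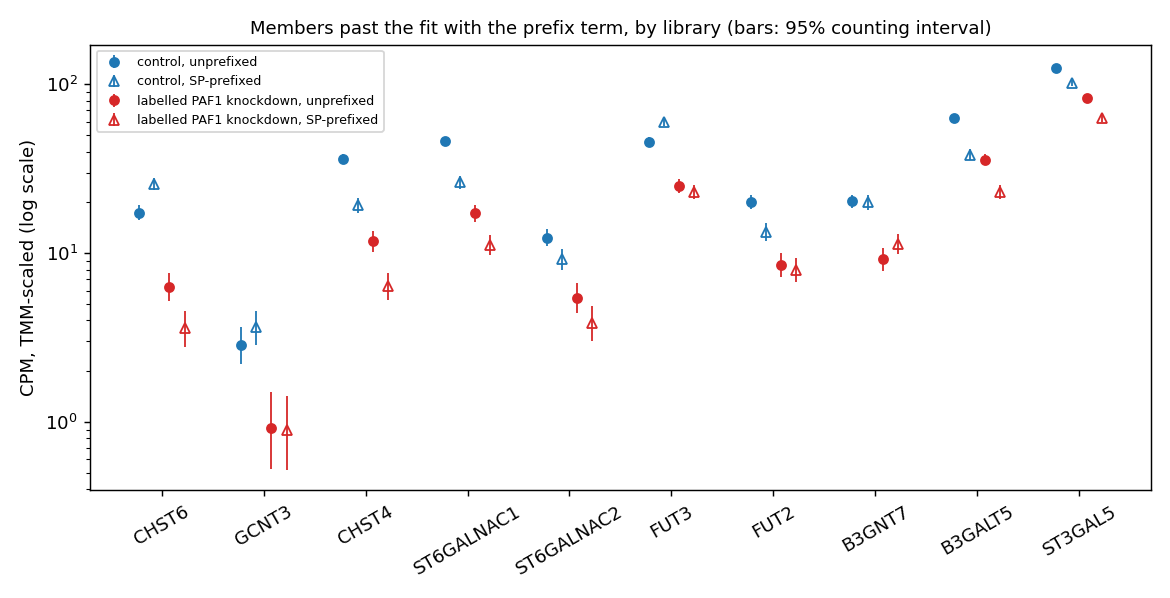
Level in each library, as TMM-scaled CPM on a log axis, of the 10 members past the fit with the prefix term, with bars for the 95% counting interval. For every gene both red symbols (knockdown-labelled libraries) lie below both blue symbols (controls); for B3GALT5 the nearest are 35.8 and 38.3 CPM.

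Of the enzymes that start O-glycans, none of the 13 tested passed either edgeR fit, where 0% and 1.95% of all genes passed, so a count of 0 is near the share over all genes. Of 18 GALNT genes these 13 had a median log2 fold change of 0.02, with 6 below 0, and 5 lay above both controls against 2 below (22.1% and 22.6% of all genes). Per kilobase of exon, GALNT2, GALNT3 and GALNT5 were the highest of the class, at 33.7, 29.5 and 20.4 reads per kb of exon per 1000000 reads (RPKM) on average. GALNT2, which acts on many substrates, had 231 and 247 CPM in control libraries and 281 and 285 CPM in knockdown-labelled ones. The groups did not overlap, and its log2 fold change of 0.24 ± 0.12 did not pass (SE over 2 libraries per group; Benjamini-Hochberg adjusted p = 0.498 in edgeR). GALNT6 had 28.1 and 26.0 CPM against 37.2 and 36.8 CPM (log2 fold change 0.45 ± 0.14, adjusted p = 0.323). GALNT12, which has been linked to colorectal cancer, had 68.7 and 63.7 CPM against 52.6 and 47.6 CPM (-0.40 ± 0.13, adjusted p = 0.348), and GALNT9 18.6 and 24.9 CPM against 13.5 and 14.0 CPM (-0.66 ± 0.19, adjusted p = 0.309). GALNT12 and GALNT2 share 21.1% and 13.3% of their exon bases with genes on the other strand. GALNT5 varied more between the controls (166 and 110 CPM, a log2 difference of -0.59) than between groups (log2 fold change 0.02). It had 152 and 128 CPM in the knockdown-labelled libraries. GALNT3 had 137 and 153 CPM in control libraries versus 139 and 123 CPM, a log2 fold change of -0.15 ± 0.13. GALNT1, GALNT4, GALNT7, GALNT10, GALNT11, GALNT14 and GALNT18 had log2 fold changes from -0.33 to 0.38, and GALNT4 shares 93.2% of its exon bases with a read-through gene on its own strand. GALNT8 and GALNT16 had too few counts to test. GALNT13, GALNT15 and GALNT17 had 0 counts in all libraries, which allows up to 0.132 to 0.174 CPM per library (3 counts, counting error only). The summed level of the family was 1053 and 1012 CPM in control libraries and 1120 and 1063 CPM in knockdown-labelled ones, so both knockdown-labelled libraries were above both controls in this total, by little.

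Among the enzymes of core synthesis and branching, GCNT3 fell and neither C1GALT1 nor its chaperone passed. C1GALT1 had 60.3 and 54.0 CPM in control libraries and 53.3 and 52.3 CPM in knockdown-labelled ones (-0.11 ± 0.13, SE over 2 libraries per group; Benjamini-Hochberg adjusted p = 0.778 in edgeR). Its chaperone C1GALT1C1, also called COSMC, had 33.4 and 32 CPM against 33.6 and 32.4 CPM (log2 difference 0.01 ± 0.14). The values of both genes were close across the 4 libraries.

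GCNT3, the mucin-type enzyme that makes core 2, core 4 and I branches (ENSG00000140297, chromosome 15, 59594875 to 59640239, plus strand), had 2.86 and 3.64 CPM in control libraries and 0.926 and 0.896 CPM in knockdown-labelled ones. The groups did not overlap, at 65 and 73 counts against 16 and 17. It fell by 1.83 ± 0.31 on the log2 scale in the prefix-term fit (SE over 2 libraries per group; Benjamini-Hochberg adjusted p = 0.0210 in edgeR), with -1.50 and -1.90 in the pairs. DESeq2 gave an adjusted p of 0.0484, and 0.142 with the prefix term. GCNT1, the core 2 enzyme of leukocytes and other tissues, had 2.64 and 2.79 CPM against 2.37 and 3.64 CPM, with overlapping groups. GCNT2, which makes I branches, stood apart in 1 library: 39.1 CPM in the SP-prefixed control against 23.1 to 25.2 CPM in the others. B3GNT6, the core 3 synthase, had 35 and 10 counts in the controls and 13 and 1 in the knockdown-labelled libraries, and its log2 fold change of -1.41 ± 0.87 did not pass. C1GALT1C1L, a copy related to C1GALT1C1, was at most 1.76 CPM. Over the class, 8 of 9 members were tested, and 6 were negative on the log2 scale, against 51.7% of all genes tested. Below both controls lay 2 of the 8, near the 22.6% of all genes tested. Above both lay 0, against 22.1%. The class median was -0.37, and the pairs gave -0.16 and -0.76. GCNT4, at most 0.797 CPM, had a log2 fold change of -0.35 ± 0.48, and GCNT7 had too few counts to test.

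Among the enzymes that extend chains, B3GNT7 and B3GALT5 fell and the other 15 tested members did not pass either fit. Of 19 genes, 17 were tested, 12 had a negative log2 fold change, a median of -0.14 was found, and 7 lay below both controls against 2 above. Over all genes tested 51.7% were negative, 22.6% lay below both controls, 22.1% lay above both and 1.41% fell in the prefix-term fit. Per kilobase the highest were B4GALT5, B4GALT1 and B3GNT3, at 57.3, 49.9 and 30.3 RPKM.

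B3GNT7, which extends sulfated keratan sulfate-like chains with GlcNAc (ENSG00000156966, chromosome 2, 231395543 to 231401164, plus strand), had 20.3 and 20.0 CPM in control libraries and 9.21 and 11.3 CPM in knockdown-labelled ones. The controls differed by less than their counting intervals and the groups did not overlap. It fell by 0.98 ± 0.18 on the log2 scale in the prefix-term fit (SE over 2 libraries per group; Benjamini-Hochberg adjusted p = 0.0304 in edgeR; DESeq2 adjusted p = 0.0122). B3GALT5, which makes the type 1 chain that carries Lewis a and CA19-9 (ENSG00000183778, chromosome 21, 39556442 to 39673137, plus strand), had 63.6 and 38.3 CPM against 35.8 and 23.0 CPM. The SP-prefixed control was close to the unprefixed knockdown-labelled library, and within both pairs the knockdown-labelled library was lower (-0.82 and -0.73). B3GALT5 fell by 0.78 ± 0.15 on the log2 scale in the prefix-term fit (adjusted p = 0.0337 in edgeR), and DESeq2 without it gave 0.214. B3GALT4, a ganglioside galactosyltransferase, had 8.90 and 10.7 CPM against 5.62 and 5.37 CPM (-0.83 ± 0.21, adjusted p = 0.253, and 0.0830 with the prefix term).

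B4GALT5, which makes lactosylceramide and also extends glycoproteins, had 328 and 308 CPM in control libraries and 255 and 190 CPM in knockdown-labelled ones. The groups did not overlap, and the log2 fold change of -0.51 ± 0.17 did not pass (adjusted p = 0.341 in edgeR, and 0.0952 with the prefix term). B4GALT1, the broad lactosamine synthase, had 233 and 270 CPM against 258 and 217 CPM, with overlapping groups, and B3GNT3, which extends core 1, 88.5 and 64.2 CPM against 70.7 and 55.7 CPM. B4GALT6, a paralog of B4GALT5, stood higher, at 5.33 and 6.68 CPM against 9.32 and 9.01 CPM, without passing (0.61 ± 0.21, edgeR, adjusted p = 0.372). B3GALT6, B3GNT2, B3GNT4, B3GNT5, B3GNT8, B3GNT9, B4GALT2, B4GALT3, B4GALT4 and B4GALT7 had log2 fold changes from -0.71 to 0.20, the lowest being that of B3GNT8, at most 0.847 CPM. B3GALT1 had 0 counts and B3GALT2 had 1. B3GALT9, left without a role here, had 1.23 and 1.15 CPM against 0.926 and 0.843 CPM.

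**Figure D3:**
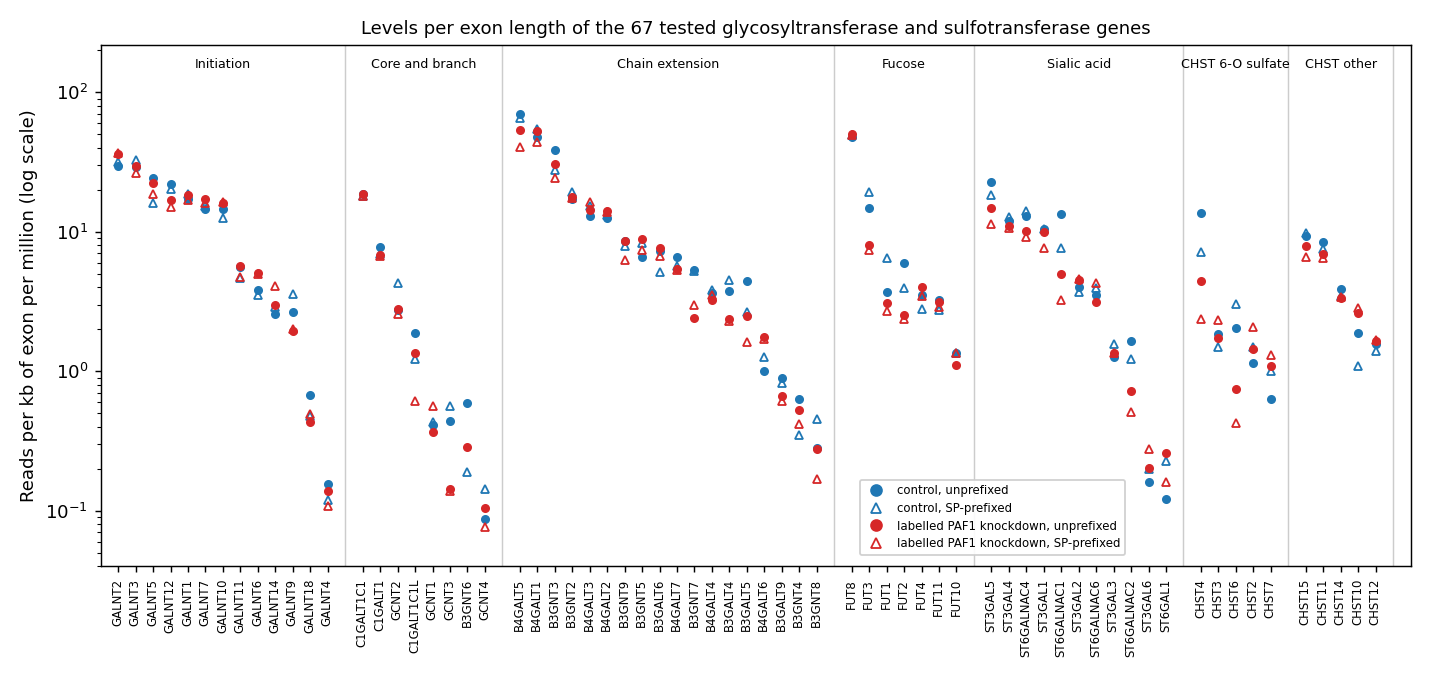
Level per exon length (RPKM, log axis) of the 67 tested members in each library, ordered within each role by mean; blue is control, red is labelled PAF1 knockdown, circles are unprefixed and open triangles SP-prefixed. The 4 symbols of FUT8 lie on each other, while in the sulfate and sialic acid classes CHST4, CHST6 and ST6GALNAC1 show red symbols well below the blue ones; B3GALT9 is drawn with chain extension.

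Among fucosyltransferases the Lewis and secretor enzymes fell and the core enzyme FUT8 did not pass. FUT3, the Lewis enzyme that adds fucose to type 1 and type 2 chains (ENSG00000171124, chromosome 19, 5842888 to 5851474, minus strand), had 45.7 and 60.1 CPM in control libraries and 25 and 23.1 CPM in knockdown-labelled ones. The groups did not overlap. It fell by 1.13 ± 0.17 on the log2 scale in the prefix-term fit (SE over 2 libraries per group; Benjamini-Hochberg adjusted p = 0.0153 in edgeR; DESeq2 adjusted p = 0.000115). FUT5 and FUT6 are close paralogs beside FUT3, so reads among them cannot be assigned with certainty. FUT5 had 0 counts, with 82.5% of its exon bases shared with a gene on its own strand, and FUT6 had 8 and 13 against 2 and 3 counts.

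FUT2, the secretor enzyme that makes H antigen in epithelia (ENSG00000176920, chromosome 19, 48695971 to 48705950, plus strand), had 20.1 and 13.4 CPM in control libraries and 8.51 and 7.96 CPM in knockdown-labelled ones. It fell by 1.00 ± 0.20 on the log2 scale in the prefix-term fit (adjusted p = 0.0380 in edgeR). DESeq2 gave 0.0340, and 0.0625 with the prefix term. Its neighbour and paralog FUT1 had 16.0 and 28.3 CPM against 13.5 and 11.7 CPM. Both knockdown-labelled libraries were lower, but the gap was small in the unprefixed pair (-0.24, against -1.26) and FUT1 did not pass (adjusted p = 0.370 in edgeR, and 0.154 with the prefix term).

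FUT8, which adds core fucose to N-glycans, was the most abundant of the class per kilobase (49.4 RPKM), at 319 and 332 CPM in control libraries and 339 and 333 CPM in knockdown-labelled ones. Its log2 fold change was 0.05 ± 0.12 (adjusted p = 0.917 in edgeR). FUT4, FUT10 and FUT11 had log2 fold changes of 0.24, -0.13 and 0.00. Of 11 fucosyltransferases 7 were tested and 4 were negative on the log2 scale (51.7% of all genes tested), with a median of -0.13. In the prefix-term fit 2 of these 7 fell, against 1.41% of all genes tested. FUT7 and FUT9 had at most 1 count.

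The sialyltransferases held 3 members that fell, 2 of them neighbours on chromosome 17. ST6GALNAC1, which makes the sialyl-Tn antigen (ENSG00000070526, chromosome 17, 76624761 to 76643838, minus strand), had 46.0 and 26.3 CPM in control libraries and 17.3 and 11.2 CPM in knockdown-labelled ones. The unprefixed control was well above the SP-prefixed one, and the groups did not overlap. It fell by 1.33 ± 0.17 on the log2 scale in the prefix-term fit (SE over 2 libraries per group; Benjamini-Hochberg adjusted p = 0.00955 in edgeR; DESeq2 adjusted p = 0.00265), with -1.41 and -1.23 in the pairs.

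ST6GALNAC2, which adds sialic acid to the GalNAc of core 1 (ENSG00000070731, chromosome 17, 76563710 to 76586956, minus strand), had 12.4 and 9.22 CPM in control libraries and 5.44 and 3.85 CPM in knockdown-labelled ones. It fell by 1.22 ± 0.21 on the log2 scale in the prefix-term fit (adjusted p = 0.0210 in edgeR; DESeq2 adjusted p = 0.0233). It shares 39.3% of its exon bases with genes on the other strand, SNHG16 among them, so some of its reads may come from those. ST3GAL5, the GM3 ganglioside synthase (ENSG00000115525, chromosome 2, 85839144 to 85889014, minus strand), had 126 and 103 CPM against 82.6 and 63.0 CPM. It fell by 0.65 ± 0.14 on the log2 scale in the prefix-term fit (adjusted p = 0.0448 in edgeR), and the call was lost with RLE size factors (0.0530) and in DESeq2 without the term (0.109).

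ST3GAL1, which caps core 1 with sialic acid, had 90.9 and 90.7 CPM in control libraries and 87.2 and 67.1 CPM in knockdown-labelled ones. The unprefixed pair differed by -0.06 and the SP-prefixed pair by -0.43, and it did not pass (-0.24 ± 0.16, edgeR, adjusted p = 0.602). ST6GALNAC4, which adds a further sialic acid to sialylated core 1, had 34.0 and 37.1 CPM against 26.6 and 24.1 CPM (-0.49 ± 0.15, adjusted p = 0.315) and ST3GAL4, an enzyme of sialyl-Lewis synthesis, 53.1 and 57.1 against 49.5 and 47.7 CPM (-0.18 ± 0.13). ST6GAL1, which caps N-glycans with sialic acid in a 6-linkage, was low, at 1.10 and 2.09 CPM against 2.37 and 1.48 CPM, and differed by 1.06 and -0.47 in the pairs. ST3GAL2, ST3GAL3, ST3GAL6 and ST6GALNAC6 had log2 fold changes from -0.06 to 0.42. ST6GAL2 had 0 counts, and ST6GALNAC3 and ST6GALNAC5 had too few to test. Over the class 11 of 14 were tested, 8 were negative on the log2 scale, with a median of -0.18, and 6 lay below both controls against 2 above. Among all genes tested the shares were 51.7% negative, 22.6% below both controls, 22.1% above both and 1.41% that fell in the prefix-term fit. The summed level was 428 and 391 CPM in control libraries and 339 and 295 CPM in knockdown-labelled ones.

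Of the sulfotransferases CHST6 and CHST4 fell, both of which put sulfate on GlcNAc, and the fall of CHST6 was the largest of the 10. CHST6, which sulfates GlcNAc in keratan sulfate and is mutated in macular corneal dystrophy (ENSG00000183196, chromosome 16, 75472052 to 75495384, minus strand), had 17.4 and 25.7 CPM in control libraries and 6.31 and 3.58 CPM in knockdown-labelled ones. The groups did not overlap, and the difference was larger in the SP-prefixed pair (-2.81) than in the unprefixed pair (-1.45). It fell by 2.12 ± 0.29 on the log2 scale in the prefix-term fit (SE over 2 libraries per group; Benjamini-Hochberg adjusted p = 0.0105 in edgeR; DESeq2 adjusted p = 2.62e-07). CHST5, its close paralog 33.15 kb away, had 0 counts in all libraries and shares 59.1% of its exon bases with a gene on its own strand, which can bear on that 0. CHST6 shares 6.49% of its exon bases with a gene on the other strand.

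CHST4, which sulfates GlcNAc on mucin-type glycans such as L-selectin ligands (ENSG00000140835, chromosome 16, 71525233 to 71538746, plus strand), had 36.1 and 19.2 CPM in control libraries and 11.8 and 6.38 CPM in knockdown-labelled ones. The unprefixed control was the higher of the controls, the groups did not overlap, and the pairs gave -1.61 and -1.57. It fell by 1.61 ± 0.18 on the log2 scale in the prefix-term fit (adjusted p = 0.00696 in edgeR, the smallest of the members; DESeq2 adjusted p = 0.00125). The promoters of CHST4 and CHST6 printed above each hold 1 E-box match and differ in the GC box, which was found in CHST6.

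CHST2, CHST3 and CHST7, the other tested members of the class in which CHST4 and CHST6 were placed here, did not pass and had values above 0. CHST2, another GlcNAc sulfotransferase, had 5.29 and 6.83 CPM in control libraries and 6.60 and 9.59 CPM in knockdown-labelled ones (0.42 ± 0.26, edgeR, adjusted p = 0.580). CHST3, a chondroitin enzyme, had 12.9 and 10.5 against 12.0 and 16.1 CPM, and CHST7 had a log2 fold change of 0.56 ± 0.32. CHST1 had at most 4 counts. The class median was therefore 0.27, opposite in sign to CHST4 and CHST6. Of the 5 tested in this class 2 fell in the prefix-term fit, against 1.41% of all genes tested.

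The remaining sulfotransferases act on chondroitin, dermatan, the GalNAc of glycoproteins or the glucuronic acid of the HNK-1 epitope, and none of the 5 tested passed. A count of 0 among 5 is near the share over all genes, 0% in the planned fit and 1.95% in the prefix-term fit. CHST15 and CHST11, chondroitin enzymes, were the highest per kilobase. CHST15 had 61.3 and 63.8 CPM against 52.2 and 43.2 CPM (-0.39 ± 0.14, edgeR, adjusted p = 0.394) and CHST11 55.3 and 48.6 against 45.1 and 42.3 CPM (-0.25 ± 0.14, adjusted p = 0.538). CHST10, which makes the HNK-1 epitope, stood the other way, at 8.37 and 4.93 CPM against 11.8 and 12.9 CPM. CHST10 did not pass (0.88 ± 0.27, edgeR, adjusted p = 0.323, and 0.0938 with the prefix term). CHST14, which sulfates dermatan, had 13.8 and 12.5 against 11.9 and 12.2 CPM, and CHST12, a chondroitin enzyme, had a log2 fold change of 0.18 ± 0.15. CHST8 and CHST9 had 0 counts and CHST13 too few to test.

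**Figure D4:**
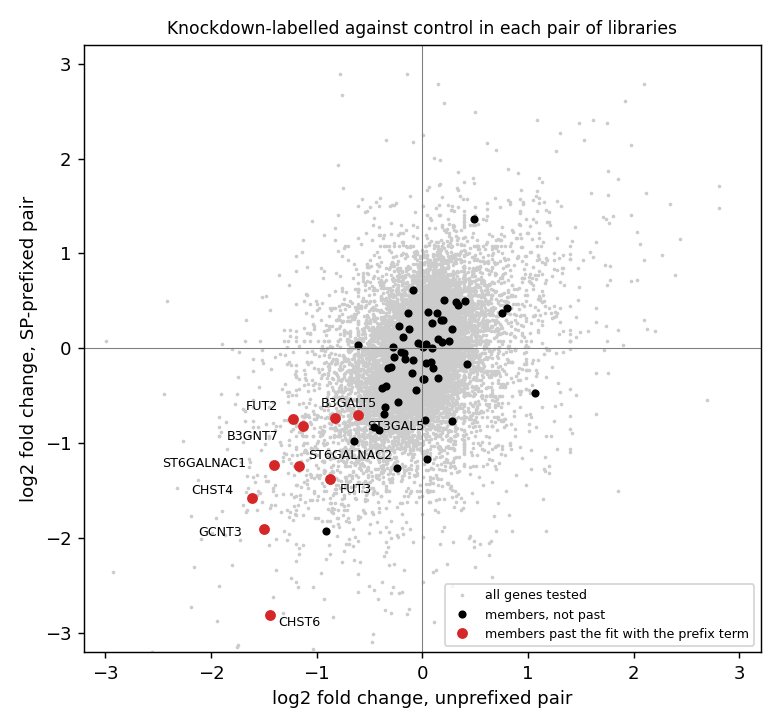
Log2 fold change in the unprefixed pair (horizontal) against that in the SP-prefixed pair (vertical) for all 16417 genes tested (grey), members not past the fit with the prefix term (black) and the 10 past it (red, named); 5 genes, none a member, lie outside the drawn range. All 10 red points are in the lower left, with CHST6 the lowest at -1.45 and -2.81.

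Some members lie side by side in the genome. ST6GALNAC2 and ST6GALNAC1 are 37.8 kb apart on the same strand of chromosome 17, and both fell. FUT2 and FUT1, 42.06 kb apart on chromosome 19, had log2 fold changes of -1.03 and -0.81. ST6GALNAC6 and ST6GALNAC4, 2.48 kb apart on chromosome 9, had -0.02 and -0.49, and ST3GAL3 and B4GALT2 on chromosome 1 had -0.06 and 0.13.

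The proteins that carry these glycans, and the enzymes that make the sugar and sulfate donors, were read from lists outside the rule. Of 15 mucins 10 were tested, 9 with a negative log2 fold change and a median of -0.99 (-0.32 and -1.13 in the pairs), and 3 fell in the prefix-term fit, MUC1 by 1.00 ± 0.13, MUC5B by 1.41 ± 0.21 and MUC20 by 1.15 ± 0.17 (1.41% of all genes tested fell, and 51.7% were negative). The gel-forming MUC5B had 25.5 and 43.2 CPM against 12.6 and 12.4 CPM. MUC5AC, a gel-forming mucin of gastric type, had 345 and 1182 CPM in control libraries and 272 and 508 CPM in knockdown-labelled ones. The surface mucin MUC16 had 103 and 804 against 91.2 and 320 CPM, and MUC4 27.9 and 196 against 38.9 and 94.8 CPM. For these 3 the SP-prefixed control was the highest library. Among the members that fell, CHST6, FUT3 and GCNT3 were also highest in the SP-prefixed control. CHST4, ST6GALNAC1, ST6GALNAC2, FUT2, B3GNT7, B3GALT5 and ST3GAL5 were highest in the unprefixed control, as was MUC1 (229 and 143 against 115 and 71.6 CPM).

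In the donor pathways GFPT2 and UAP1 rose. None of 9 tested genes for sulfate donor synthesis and transport passed (median -0.04), although PAPSS2, which makes the activated sulfate donor, had 41.8 and 52.1 CPM against 65.4 and 74.7 CPM (0.58 ± 0.16, edgeR, adjusted p = 0.280, and 0.0781 with the prefix term). None of 9 Golgi nucleotide sugar transporters passed (median 0.01). The planned and prefix-term fits passed 0% and 1.95% of all genes, so counts of 0 in lists of this size are near that share. Of 18 genes for nucleotide sugar synthesis (median -0.08) 2 rose in the prefix-term fit, against 0.542% of genes that rose. GFPT2, which starts hexosamine synthesis, rose by 0.90 ± 0.16 (SE over 2 libraries per group; Benjamini-Hochberg adjusted p = 0.0245 in edgeR). Its levels were 26.0 and 31.8 CPM in the controls, with 54.8 and 53.0 CPM in the others. The more abundant GFPT1, on the same list, had 205 and 305 CPM in the controls, with 214 and 188 CPM in the others. The groups overlapped for GFPT1, and it did not pass (-0.34 ± 0.20, edgeR, adjusted p = 0.555). UAP1, which makes UDP-GlcNAc, rose by 0.72 ± 0.14 (adjusted p = 0.0337 in edgeR). Its levels were 95.8 and 109 CPM in the controls, with 146 and 194 CPM in the others.

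Other enzymes that finish glycans gave further falls. Of 23 such genes 11 were tested, 8 were negative on the log2 scale, with a median of -0.55, and 3 fell in the prefix-term fit, against 51.7% of all genes negative and 1.41% that fell. ABO, the blood group transferase, had 23.1 and 21.3 CPM against 10.8 and 8.11 CPM and fell by 1.25 ± 0.18 (SE over 2 libraries per group; Benjamini-Hochberg adjusted p = 0.0135 in edgeR). B4GALNT3, which makes terminal LacdiNAc, fell by 1.42 ± 0.23 (adjusted p = 0.0189), and A4GALT, the Gb3 and P1 synthase, by 0.98 ± 0.19 (adjusted p = 0.0337). Of 13 N-glycan branching genes 11 were tested (median -0.07), and MGAT3, which adds the bisecting GlcNAc, fell by 1.08 ± 0.15 (adjusted p = 0.0105), with 48.1 and 68.1 against 23.0 and 31.7 CPM. MGAT3 was the 1 gene of these 11 that fell, against 1.41% of all genes. MGAT5 and MGAT5B had positive values of 0.36 ± 0.12 and 0.61 ± 0.13 that did not pass.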

How the data were processed

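The authors deposited raw counts, 1 column for each lane. The submitters' processing notes name FastQC, HISAT2 and featureCounts, as well as hg19 and GRCh38, and give no version of any of these and no role of either build. The strand setting of the counting is not given in the sources used here. Gene lengths are the exon lengths in the deposited table. Per the labels' protocols RNA came from a mirVana kit, with an integrity number of 10, and libraries from a TruSeq RNA kit. Of 60483 identifiers 56753 were in GENCODE 29 (GRCh38), and 56729 of these overlapped the annotated span, so coordinates are given on GRCh38. Gene types and symbols came from GENCODE and its gene name table.

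Lanes, technical replicates per the labels, were summed. Differences between groups were tested in edgeR 4.0.16 in R 4.3.3 (quasi-likelihood F test, TMM, expression filter with a minimum count of 10, Benjamini-Hochberg over the 16417 genes left, threshold 0.05). The planned fit had no covariate and 2 residual degrees of freedom, and the prefix-term fit, which models the SP prefix of the column names, had 1. CPM (counts per 1000000) and RPKM (CPM per kb of exon) use TMM-scaled library sizes, and values per pair use log2 CPM with a prior count of 2. SEs come from the F statistic, whose spread is drawn in part from all genes tested. An SE is therefore not the spread of the libraries of that gene alone. With 1 library of each group at each prefix, the prefix-term fit compares libraries within prefixes. The column names hold no library number to block on. Counting intervals are exact Poisson, at 95%, and limits for genes at 0 counts are 3 counts per library. DESeq2 1.42.0, limma 3.58.1 and the other settings are given in the closing section. The edgeR fits were run on simulated counts with known changes and a fixed spread. The planned fit was simulated without a prefix difference, so this checked the code and not the error rates in these libraries. Tables and figures used Python 3.11.15, pandas 2.3.3, scipy 1.17.1 and matplotlib 3.10.9.

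The members, lists and the prefix term were chosen with earlier results of these data known. Members were named if past either edgeR fit, if at an unadjusted p under 0.05 with at least 1 CPM, if among the 3 highest of their role per exon length, or if on a fixed list of core enzymes. Pathway lists outside the rule named their members past either fit and 5 mucins. Among the cell type markers only CA2, a ductal one, passed a fit. CA2 rose by 1.21 ± 0.16 in the prefix-term fit (edgeR, Benjamini-Hochberg adjusted p = 0.0105), where 0.542% of all genes tested rose. Other genes in the text were chosen after their values were seen.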

Additional observations from a re-analysis of the deposited data

How the results depend on the processing

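Where the planned edgeR fit passed 0 genes and 0 members, the fit with the prefix term passed 320 genes and 10 members, DESeq2 236 and 8, and DESeq2 with the prefix term 222 and 8. The settings of the next 2 sentences, and the older edgeR variant without the term, were added after the data were seen. With the prefix term, RLE size factors gave 270 genes and 9 members (ST3GAL5 was lost), library size alone 401 and 10, limma-voom 298 and 10, and the older edgeR variant 304 and 10. The prefix term without a count filter passed 0 genes, with adjusted p-values of 0.117 to 0.228 for the 10 members, and the cause was not tested. The other settings of the planned fit, among them each lane alone, passed 0 genes. Leaving out 1 library passed 0 to 1316 genes and 0 to 9 members (1316 without the unprefixed control, 208 without the SP-prefixed control, 0 without either knockdown-labelled library), and the median over the members ran from -0.198 to -0.077. The 10 members past the prefix-term fit kept a negative log2 fold change in the 21 other settings. Signs changed for members near 0 when 1 library was left out: ST6GAL1 ran from -0.12 to 0.79, GALNT5 from -0.245 to 0.356, B4GALT1 from -0.204 to 0.0392, C1GALT1C1 from -0.0164 to 0.056 and GCNT1 from -0.191 to 0.426. On lane 1 alone C1GALT1C1 was -0.0424 and GCNT1 -0.239. The prefix term pairs libraries by column-name prefix. No paired analysis was possible because the columns carry no library number, if libraries are to be paired by the numbers of the titles. With 2 libraries per group, members with under 20 counts in some libraries are limited by depth. Among them are GCNT3, B3GNT6, GALNT4, GCNT4, B3GNT8, C1GALT1C1L, B3GALT9 and FUT6, the last of which was not tested.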

Other observations

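Lists of 2 neighbouring pathways held no gene past either edgeR fit, where 0% and 1.95% of all genes passed, so counts of 0 in lists of this size are near the share over all genes. Of 15 genes for the linker and chains of glycosaminoglycans, 14 were tested and 4 were negative on the log2 scale, against 51.7% of all genes. The median was 0.16 and none passed either edgeR fit. EXT1, a heparan sulfate polymerase, had 120 and 126 CPM in control libraries and 162 and 160 CPM in knockdown-labelled ones, a log2 fold change of 0.39 ± 0.12 (SE over 2 libraries per group; Benjamini-Hochberg adjusted p = 0.315 in edgeR). UST, a uronyl sulfotransferase, had 4.94 and 5.03 CPM against 2.89 and 3.32 CPM (-0.68 ± 0.23, adjusted p = 0.372). Of 13 sialidases and lysosomal enzymes that take glycans apart, 11 were tested, none passed either fit and the median was -0.01. The sialidase NEU1 had 43.8 and 47.8 CPM against 40.3 and 42.6 CPM.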
